A study of Drosophila melanogaster with 2 samples.

Results

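The regions described here are the binding sites of the transcription factor Single-minded (Sim) whose summits lie next to the core of the CNS midline element. The core is the 5 bases ACGTG, and a peak was included when an exact match on either strand lay wholly within 100 bp of its summit. Of the 2682 peaks in the authors' pooled optimal list, 398 met this rule, or 14.8% (95% exact binomial interval 13.5 to 16.2), and 2284 did not. The rule uses the summit position of each peak in this thresholded list and the bases around it. Signal values, distances to genes and the replicate lists played no part in it.

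Sim belongs to the bHLH-PAS family, whose members bind DNA as heterodimers. Its partner is Tango, the fly counterpart of the vertebrate protein ARNT, and the dimer recognises TACGTG, the best described form of the CNS midline element. Sim is known for specifying the midline cells of the embryonic ventral nerve cord, where it acts together with the POU factor Ventral veins lacking (Vvl) and the Sox factor Dichaete. Other PAS dimers that contain Tango, such as Trachealess with Tango in the trachea and Similar with Tango in low oxygen, read the same core. E-box factors such as Myc with Max and Clock with Cycle recognise CACGTG, which contains the core on both strands.

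The chromatin came from whole embryos of Drosophila melanogaster aged 0 to 24 h, from a strain labelled sim-GFP in which an insertion produces a sim-eGFP fusion, and all embryos carried it. Immunoprecipitation (IP) was against the GFP tag, while the antibody entry of the labels names sim. There was 1 group with 2 biological replicates, no second genotype or treatment, and no control library analysed here. Whole embryos mix all cell types, so a peak does not say in which cells the protein was bound, and midline cells are a small part of them. Sequencing depth is unknown, because the lists hold no read counts, and every interval below covers counting error over peaks only.

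The sequences below show the core in capitals with 12 bases on either side, read 5′ to 3′ on the strand that reads ACGTG, from the RefSeq copy of the dm6 assembly. The first 4 come from peaks among the 15 strongest and carry a different base before the core in each. Ugalt encodes a Golgi UDP-galactose transporter, gish a casein kinase I gamma, Gapdh2 a glycolytic enzyme and aos (argos) a secreted inhibitor of EGF receptor signalling. The remaining lines come from the genes of midline cells and of the bHLH-PAS family that had such a peak, and from a pair of peaks with 3 cores.
Ugalt, chrX:2703804-2703832, plus strand: tgcgcgccagggACGTGgtcctgggcttg
gish, chr3R:16280803-16280831, plus strand: taaaatttttctACGTGtgggtttaattt
Gapdh2, chrX:15868065-15868093, minus strand: ttgctctcagtaACGTGaaagctcaatgc
aos, chr3L:16480458-16480486, minus strand: ctctcactgtacACGTGtgtgtgaatgaa
sim, intron, chr3R:13068264-13068292, minus strand: catgtattttatACGTGtttgtatttgca
sim, upstream peak, chr3R:13057307-13057335, minus strand: tggatgatgtggACGTGctcggcgaccgg
sim, upstream peak, chr3R:13057337-13057365, plus strand: atccggcggaaaACGTGagcacatacaca
glec, chr3R:21849148-21849176, plus strand: ttctcattataaACGTGtgcttccgctga
D, chr3L:14174458-14174486, plus strand: atttgacatacaACGTGgaaaacgaaggg
Met, chrX:11622170-11622198, plus strand: gtgcctgcgtgtACGTGtaagtgtgcgtg
sick, chr2L:19935284-19935312, minus strand: acgtgcgtcagtACGTGcgtcagtacgtg
CG11247, chr3L:21728830-21728858, plus strand: acactttgttgaACGTGacttcttttaca
CG11247, chr3L:21728869-21728897, plus strand: acagcctgctgaACGTGaccactttgctc
The intronic site of sim has T before the core and so matches the full TACGTG form, as do the sites at gish, Met and sick. The site at aos is the palindrome CACGTG, and those at glec, D and Gapdh2 have A before the core. The sick line holds the neighbouring cores as well, in lower case, since its 3 copies of TACGTG follow each other at steps of 12 bp.

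Whole windows of 201 bp are shown for the intronic peaks of aos and sim, because these midline genes had the strongest peaks of their list. Both windows lie outside untranslated regions and are given on the plus strand, with the core in capitals (for aos the full palindrome).
aos, chr3L:16480469-16480669: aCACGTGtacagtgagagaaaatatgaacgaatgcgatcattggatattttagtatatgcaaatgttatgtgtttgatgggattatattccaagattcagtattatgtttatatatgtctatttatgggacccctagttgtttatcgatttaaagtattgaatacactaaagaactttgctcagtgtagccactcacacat
sim, chr3R:13068145-13068345: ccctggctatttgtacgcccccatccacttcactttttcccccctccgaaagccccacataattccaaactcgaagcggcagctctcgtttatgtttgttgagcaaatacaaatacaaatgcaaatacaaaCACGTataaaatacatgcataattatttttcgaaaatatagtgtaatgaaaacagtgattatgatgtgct
Each window also holds ATGCAAAT, the octamer-type pattern read by POU factors, searched as an exact match on either strand. In sim it spans chr3R:13068263-13068270 and ends 5 bases before the core, and in aos it lies 50 bases from the core as read on the minus strand. Over all core-holding peaks this pattern was present in 13 of 398 windows (3.27%), against 77 of 2284 windows without the core (3.37%) and 3.32% of the 664860 adjoining windows of the same length over the arms. The difference between the windows with and without the core was -0.105 points (interval -1.68 to 2.23), with an adjusted p of 1.00 by Fisher's exact test over 16 patterns. Over the 13 members the pattern lay 0 to 154 bases from the nearest core. The closest was a peak nearest to sm, where the pattern adjoins AACGTG. Both windows also hold the GAGAG pattern and ACAGTG. The latter was present in 16.1% of the windows with the core, in 17.7% of all summit windows and in 7.51% of the adjoining windows of the arms.

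The core was not concentrated at summits. It was present in 14.8% of summit windows, in 17.5% of equal windows centred 300 bp to either side, in 16.6% of those centred 1000 bp away and in 15.8% of all adjoining windows of the arms. In the replicates' own lists the share was 15.6% in replicate 1 (167 of 1071 peaks) and 13.4% in replicate 2 (224 of 1676), and in the conservative list it was 15.3% (376 of 2451). In bins of 25 bp there were on average 20.2 cores per 1000 peaks within 50 bp of the summit, 22.5 at 50 to 100 bp and 25.3 at 200 to 500 bp. Mean GC content moved in the same direction, at 35.9%, 40.0% and 42.9% of bases in these zones, and its part in the core's profile was not tested. Given a lone core somewhere in the window, as in 357 peaks, it lay within 50 bp of the summit in 171 (47.9%), against 49.2% of the positions that the rule allows (difference -1.34 points, interval -6.63 to 3.98, exact binomial p = 0.634).

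**Figure D1:**
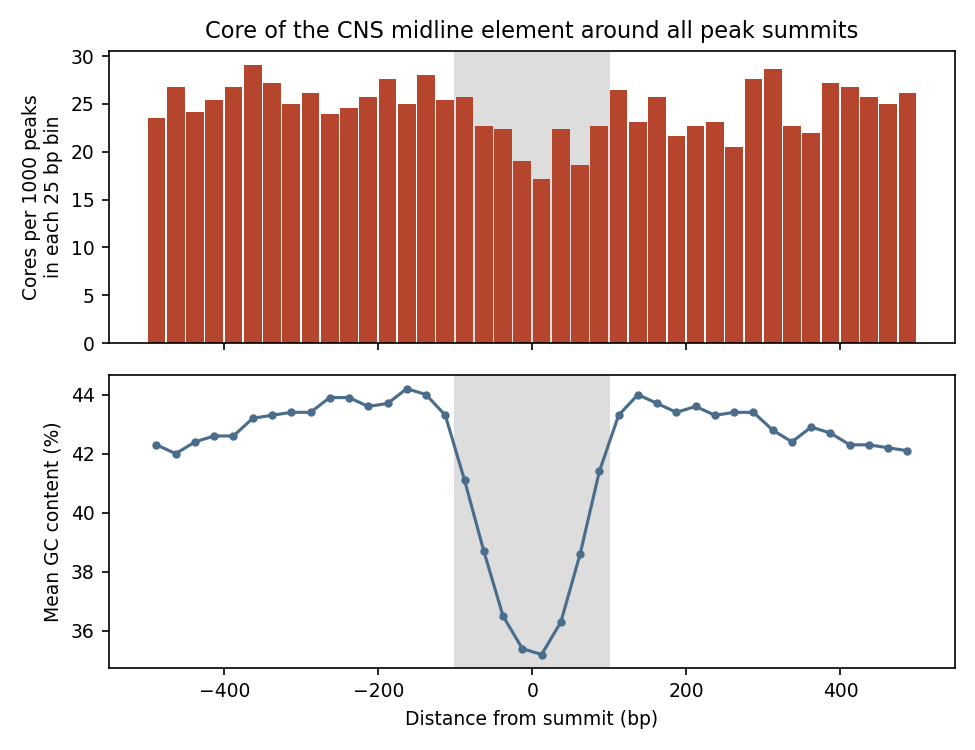
Upper panel, number of cores per 1000 peaks in each 25 bp bin from 500 bp before to 500 bp after the summits of all 2682 peaks; lower panel, mean GC content (%) in the same bins; the grey band marks the 100 bp on either side that define core-holding peaks. Both quantities dip at the summit, to averages of 20.2 cores per 1000 peaks and 35.9% GC within 50 bp.

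Most core-holding peaks had a single copy. There were 357 peaks with 1 core (89.7%), 38 with 2 (9.55%) and 3 with 3 (0.754%), which gives 442 sites. The neighbouring copies in the 41 peaks with more than 1 were 5 to 168 bp apart, with a median over peaks of 39.0 bp for the smallest step, and 8 of the 41 peaks had a step of at most 20 bp. The 3 peaks with 3 cores were nearest to CG11247 (signal value 100, AACGTG and GACGTG), to sick (73.8, TACGTG only) and to fand (50.3, AACGTG and TACGTG), a gene for a spliceosome component. The CG11247 peak was in both replicate lists, and those of sick and fand were in neither.

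The base before the core, read on the strand of the core, was T at 125 of the 442 sites (28.3%), A at 161 (36.4%), G at 89 (20.1%) and C, which makes the palindrome, at 67 (15.2%). The 1032 cores in the windows 300 bp to either side had T in 27.8%, A in 34.4%, G in 23.4% and C in 14.4%. The share of the full TACGTG form at the summits did not differ beyond counting error from that beside them (difference 0.470 points, interval -4.42 to 5.58, Fisher's exact p = 0.850). The same held for the E-box palindrome CACGTG (difference 0.720 points, -3.08 to 4.88, Fisher's exact p = 0.748). TACGTG occurred in 4.44% of all summit windows and in 4.42% of all adjoining windows of the arms, and CACGTG in 2.46% and 2.36%. The base after the core has no single strand in the palindrome, so palindromes are left out of the following counts. By the pair of bases around the core, the most frequent contexts were AACGTGT with 46 sites and TACGTGT with 45. The rarest was GACGTGG with 15.

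No difference in strength between peaks with and without the core passed a test. The signal value of a peak is the strength given by the authors' peak caller, and it is used here only to rank peaks within a list. Its median was 73.2 with the core (quartiles 59.2 and 110, range 2.10 to 755) and 75.3 without it (61.0 and 110, 2.01 to 711). Above the median of the whole list were 48.2% of core-holding peaks and 50.3% of the others (difference -2.07 points, interval -7.35 to 3.25, Fisher's exact p = 0.480). In the replicates' ranked lists the median signal value with and without the core was 35.0 and 35.4 in replicate 1, and 42.5 and 43.7 in replicate 2.

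Recurrence between the replicates was also compared. Of the 398 peaks, 126 overlapped a peak in both replicate lists, 26 only in that of replicate 1, 103 only in that of replicate 2, and 143 in neither. The share in both was 31.7% with the core and 30.7% without (difference 0.967 points, interval -3.81 to 6.05, Fisher's exact p = 0.724). The conservative list, which asks for agreement between replicates, overlapped 78.1% of core-holding peaks and 80.3% of the others (difference -2.11 points, -6.71 to 2.03, Fisher's exact p = 0.342). None of these intervals leaves out a difference of a few points. The replicate lists are of unequal length, and the shorter, of 1071 peaks, limits how many can recur in both. It sets no exact bound, since 1 replicate peak can overlap more than 1 pooled peak.

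The 15 strongest core-holding peaks had signal values from 228 to 755, and all 15 were in both replicate lists. Ugalt led the whole list at rank 1, with a value of 755 in the pooled list, 303 in replicate 1 and 452 in replicate 2, and its summit was 39 bp from the start site of the gene. The peak in an intron at gish was at rank 10, with 572 pooled, 240 in replicate 1 and 331 in replicate 2. The peak near Tina-1 on arm 2R had 500, 223 and 278 in the same order, and it held 2 cores 58 bp apart. These 3 summits were all within 500 bp of a start site, as were 7 of the 15 in all.

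The next peaks included genes of general cell function. The eEF1gamma peak, nearest to the gene for a subunit of translation elongation factor 1 but 5734 bp away, had a pooled value of 467, with 172 in replicate 1 and 289 in replicate 2. Adf1 on arm 2R, which encodes a Myb-related transcription factor, had 358, 154 and 230 in that order. CG8360 followed with 343, 124 and 216. Gapdh2 had 322, 143 and 177. Both of the last 2 summits were within 500 bp of a start site, at 67 bp for CG8360 and 152 bp for Gapdh2. The remaining 8 were aos, DNAlig3, a DNA ligase, norpA, the phospholipase C of phototransduction, Arl1, a Golgi GTPase, CG9663, JIL-1, a histone H3 kinase, CG9837 and Ptpmeg2, a tyrosine phosphatase, with pooled values of 302 down to 228, 94.5 to 132 in replicate 1 and 103 to 187 in replicate 2. Of the 15 summits 9 were in introns and 6 between genes.

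In 12 of these 15 peaks every core lay more than 50 bp from the summit. As a description added after this was seen, peaks with a lone core were divided into 4 parts by signal value. Within 50 bp were 40.0% of lone cores in the strongest part (36 of 90, exact interval 29.8 to 50.9), then 48.3%, 51.7% and 51.7%. The strongest part includes the peaks that prompted the division, so no test is given. Mean GC content within 50 bp of the summit was 34.2% in the strongest part and 43.4% in the fourth, and its role was not tested.

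**Figure D2:**
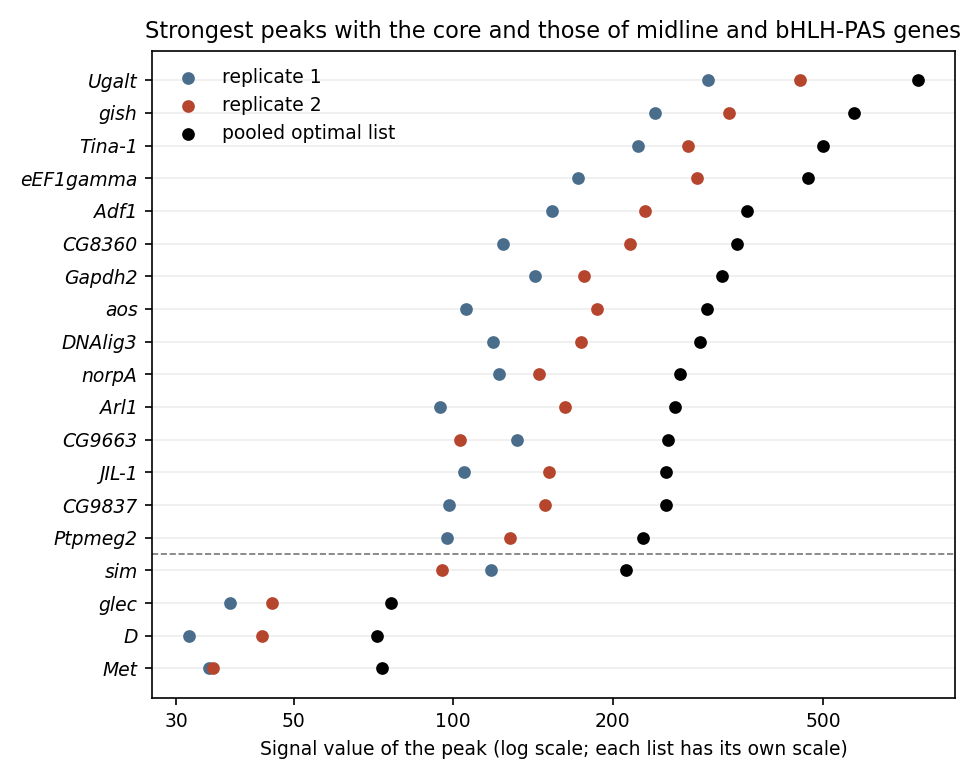
Signal value (log scale) of the 15 strongest core-holding peaks, above the dashed line, and of the strongest core-holding peak of each further midline or bHLH-PAS gene, below it; points show the value in the ranked list of replicate 1 (blue), of replicate 2 (red) and in the pooled optimal list (black), and each list has its own scale. Pooled values run from 755 at Ugalt to 228 at Ptpmeg2, with sim at 212 and glec, D and Met at 76.2, 71.7 and 73.3.

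Core-holding summits lay closer to gene starts than the others. A protein-coding transcription start site (TSS) was within 500 bp of 189 of 398 summits with the core (47.5%) and of 891 of 2284 without it (39.0%). The difference of 8.48 points (95% interval 3.22 to 13.8) passed a two-sided Fisher's exact test (p = 0.00159), in which peaks, not replicates, are the units. The median distance to the nearest TSS was 580 bp with the core and 1078 bp without, and 15.6% and 24.2% of summits were more than 5 kb away. Core-holding windows were also richer in GC, at a mean of 40.1% (SD 8.44, n = 398) against 37.6% (SD 8.66, n = 2284). The bases of the core are counted in these means.

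The peaks were divided into 3 classes of about equal size by GC content, and the share near a TSS was higher with the core in each. In the lowest class, of 18.9 to 33.3% GC, 46.5% of core-holding summits were near a TSS against 41.2% of the others (difference 5.32 points, interval -4.68 to 15.5, Fisher's exact p = 0.337). In the middle class the shares were 38.8% and 33.2% (5.64 points, -3.26 to 15.1, exact p = 0.255). In the highest class, of 41.3 to 67.7% GC, they were 54.0% and 42.7% (11.3 points, 3.05 to 19.4, exact p = 0.00841). Only the highest class passed the test on its own. Combined over the classes (Mantel-Haenszel method, added after the data were seen), the difference was 7.93 points and passed the threshold of 0.05. The share of peaks that hold the core itself rose with GC, from 10.7% to 13.8% and 20.3%. GC was counted over the same window that was searched for the core. The G and C bases of the core therefore add to this rise, and by how much was not tested.

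**Figure D3:**
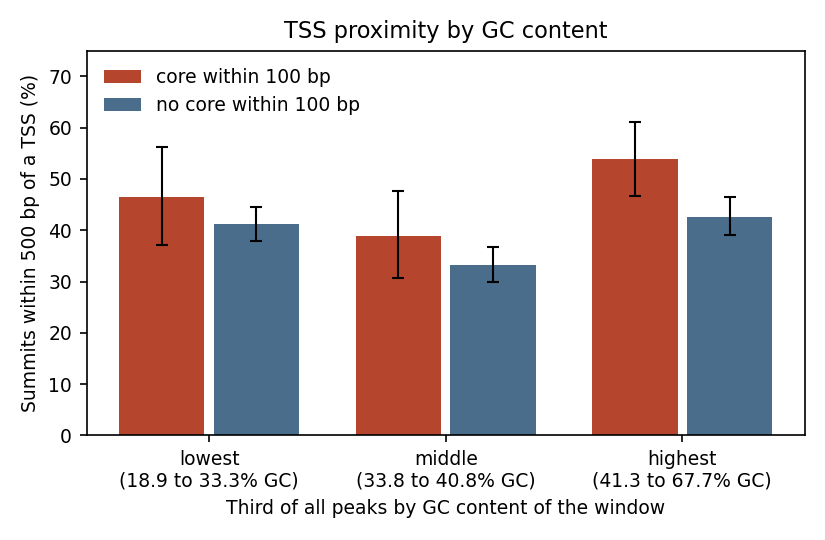
Share of summits within 500 bp of a protein-coding TSS (%) for peaks with the core (red) and without it (blue), in the 3 classes of all peaks by GC content of the 201 bp window; bars are shares and error bars 95% Wilson intervals over peaks. The red bar is above the blue in each class, by 5.32, 5.64 and 11.3 points.

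The core is itself more frequent at gene starts. It was present in 17.5% of the summit windows within 500 bp of a TSS (189 of 1080, exact interval 15.3 to 19.9) and in 18.3% of windows centred on every protein-coding TSS (3521 of 19252). Of summit windows farther away 13.0% held it (209 of 1602, 11.4 to 14.8), against 15.6% of adjoining windows centred over 500 bp from a TSS (91910 of 588613). Near gene starts the interval at peaks thus included the share at start sites in general, and away from them the interval lay below the share of the surrounding genome. The windows compared near gene starts are unlike, since the summits lie up to 500 bp from a TSS and the other windows are centred on it. Neither comparison takes account of GC content, which over all peaks was 35.9% within 50 bp of the summit, and its part was not tested.

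The features under the summits differed in the same way. Core-holding summits lay in a 5′ UTR in 57 cases (14.3%), against 8.23% of the others (difference 6.09 points, interval 2.77 to 10.0, Fisher's exact adjusted p = 0.00131 over 6 features). They lay in introns less often, at 43.5% against 51.1% (-7.67 points, -12.9 to -2.35, Fisher's exact adjusted p = 0.0167). Intergenic summits made up 35.2% and 33.5% (Fisher's exact adjusted p = 0.724). Coding sequence held 2.01% and 2.58%, 3′ UTRs 1.76% and 1.36%, and other exons 3.27% and 3.15%, with Fisher's exact adjusted p between 0.724 and 0.877. With the list of replicate 1 alone the 5′ UTR difference was 6.19 points with an adjusted p of 0.110 and the intron difference -7.46 points with 0.233. Within the classes of GC content neither passed, with differences of 2.97, 3.51 and 5.17 points for 5′ UTRs and -9.80, -7.37 and -2.91 points for introns from the lowest to the highest class. Combined over the classes they were 4.06 and -6.16 points, and both passed the threshold of 0.05 without adjustment (Mantel-Haenszel method, added after the data were seen).

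**Figure D4:**
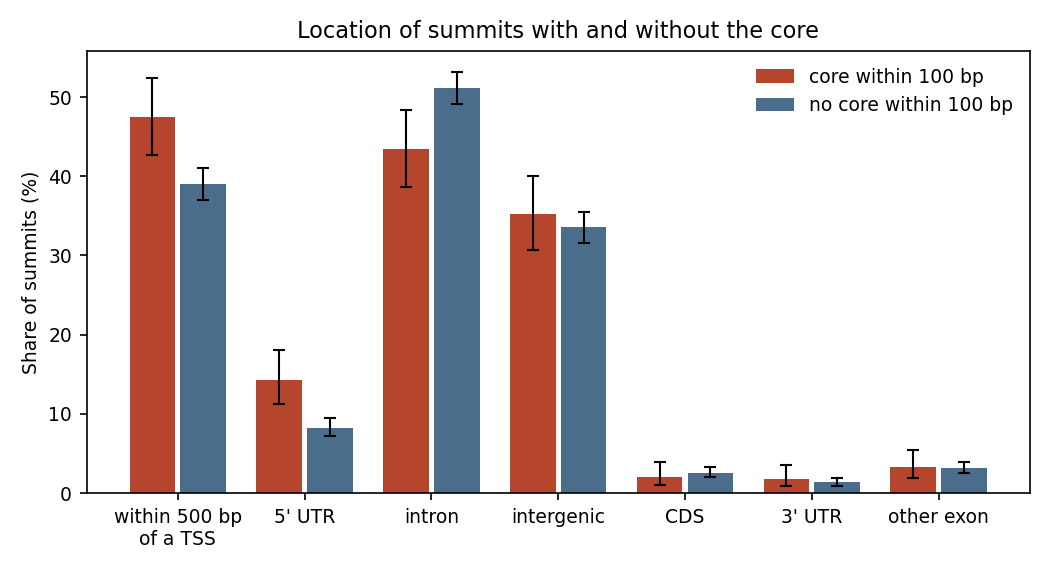
Share of summits (%) near a TSS and in each genomic feature, for peaks with the core (red, n = 398) and without it (blue, n = 2284); bars are shares and error bars 95% Wilson intervals over peaks, and the first category overlaps the features. The red bar is higher for TSS proximity (47.5 against 39.0%) and 5′ UTRs (14.3 against 8.23%) and lower for introns (43.5 against 51.1%).

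Around the nearest start sites, 215 sites of the core lay within 500 bp, 138 upstream and 77 downstream. Their density was highest next to the start, with 58.0 sites per 100 bp in the 50 bp upstream and 68.0 in the 50 bp downstream, against 13.5 at 301 to 500 bp upstream and 6.86 at 151 to 500 bp downstream. Leaving out palindromes, 95 of 185 read ACGTG on the strand of the transcript. Over all 19253 start sites of the annotation the core began most often at position 30 downstream, at 65 start sites, where the median position had 11.0. Each of these sites lies within 100 bp of a summit by the rule, and core-holding summits within 500 bp of a TSS were at a median of 127 bp from it. The densities therefore cannot tell the position of the core apart from that of the summits.

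No form of the core differed from the others in location beyond its error. Near a TSS were 54.2% of the 120 peaks with TACGTG, 45.9% of the 157 with AACGTG, 49.4% of the 87 with GACGTG and 43.9% of the 66 with CACGTG. The TACGTG peaks differed from the remaining core-holding peaks by 9.56 points (interval -1.11 to 19.9), with a Fisher's exact p of 0.0816 and 0.326 after adjustment over the 4 forms, a comparison added after the values were seen. Median signal values were 73.3, 77.0, 72.6 and 68.1 in the same order of forms. The share in both replicate lists ranged from 25.8% for CACGTG to 35.6% for GACGTG.

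None of 16 other patterns passed after adjustment between windows with and without the core (Fisher's exact test), and 1 had an unadjusted p under 0.05. This was CCGGAA, a motif read by ETS factors, in 7.79% of windows with the core and 5.04% of those without (difference 2.75 points, interval 0.304 to 5.92, Fisher's exact p = 0.0308, adjusted 0.493). It occurred in 6.11% of all adjoining windows. The GAGA-factor pattern GAGAG was in 29.6% and 26.9% of windows, against 21.5% of adjoining windows. ACAATG, a pattern read by Sox factors, was in 10.8% and 11.5%, and 12.4% of adjoining windows.

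On the chromosome arms the share of peaks with the core was 13.1% on 2L, 15.7% on 2R, 15.5% on 3L, 14.6% on 3R and 15.2% on X, with exact intervals that overlap. On the fourth chromosome 2 of 11 peaks had it. The peak nearest to RpS3A had a signal value of 92.9, and that nearest to ci, the transcription factor of Hedgehog signalling, had 58.9 and held 2 copies of TACGTG 136 bp apart. Neither peak was in a replicate list or in the conservative list, and neither had a match in the ranked list of replicate 1.

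Genes were counted as having such a peak when a core-holding summit lay within the gene or 5 kb either side. This applied to 936 of 13945 protein-coding genes (6.71%), while 3662 (26.3%) had a summit without the core. Among 15 midline genes 4 had a core-holding peak (26.7%) and 8 had one without the core (53.3%). The genes of this list have a median length of 7458 bp, against 2166 bp over all genes, and longer genes offer more room for a summit. The 4 were sim, aos, glec, a carbohydrate-binding protein of midline glia, and D (Dichaete), the Sox partner of Sim. No core-holding summit lay near the other 11.

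The sim locus carried 2 core-holding peaks and 2 without the core. The intronic peak, 4154 bp from the nearest TSS, had a signal value of 212 in the pooled list, 118 in replicate 1 and 95.4 in replicate 2, was in both replicate lists, and had TACGTG 33 bp from its summit. The peak upstream of the gene, 435 bp from a TSS, had 84.4, 29.9 and 53.5 in that order, was in the replicate 2 list only, and held GACGTG 1 bp from its summit with AACGTG 30 bp farther. The stronger peak of those without the core at sim had 66.9.

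The aos peak had a signal value of 302 in the pooled list, 106 in replicate 1 and 187 in replicate 2. It was intronic and 3081 bp from the TSS, and its palindrome lay 97 bp from the summit, at the edge of the window. The glec peak had 76.2, 38.0 and 45.5 in that order. It lay between genes, 2439 bp from a TSS of Gr93d, which was the nearest. The D peak had 71.7, 31.7 and 43.6 and lay 3047 bp from the TSS, with AACGTG 18 bp from its summit. Of these midline peaks only aos and the intronic sim peak exceeded the median of all core-holding peaks by a wide margin, and glec and D were near it.

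Of 12 genes of the bHLH-PAS family, 2 had a core-holding peak (16.7%) and 8 had a peak without the core (66.7%), beside 6.71% and 26.3% of all protein-coding genes. These were sim and Met, a juvenile hormone receptor, whose peak had signal values of 73.3 pooled, 34.7 in replicate 1 and 35.2 in replicate 2. That summit lay 77 bp from a TSS of the neighbouring gene Ptp10D, in a 5′ UTR, with TACGTG 92 bp away, and the peak was in neither replicate list. The genes of the bHLH-PAS list have a median length of 20839 bp, against 2166 bp over all genes, which offers more room for a summit. Neither the genes of the circadian E-box list (0 of 8) nor those of muscle (0 of 14) and epidermis (0 of 7) had a core-holding peak. Of these lists 4, 5 and 4 genes had a peak without the core. Lists of this size cannot tell a count of 0 from the share over all genes.

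The lists for trachea, hypoxia and the Myc, Max and Mitf factors each had a single gene with a core-holding peak, beside 6.71% of all protein-coding genes. In that order 40.0%, 60.0% and 62.5% of their genes had a peak without the core, beside 26.3% of all. Their median lengths are 11304, 5662 and 11792 bp, against 2166 bp over all genes. In the trachea list 1 of 15 genes (6.67%) had a core-holding peak, salm, a zinc-finger factor of the tracheal trunk (50.6 pooled, 29.0 in replicate 1, 25.6 in replicate 2, TACGTG). In the hypoxia list it was 1 of 10, chrb, a TOR inhibitor induced by low oxygen (54.9, 21.1 and 41.5, AACGTG). In the Myc, Max and Mitf list it was 1 of 8 (12.5%), Mnt, a repressor that pairs with Max (58.7, 21.8 and 37.0, TACGTG). All 3 peaks were weaker than the median core-holding peak, and none was CACGTG. Those of salm and chrb were in neither replicate list, and that of Mnt was in the replicate 2 list only. The peaks of chrb and Mnt were not in the conservative list.

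Of the 19 lists the EGF receptor list had the largest share, 5 of 13 genes (38.5%), with 8 of 13 (61.5%) near a peak without the core, beside 6.71% and 26.3% of all protein-coding genes. Besides aos, it held aop, which encodes the ETS repressor Yan, with a pooled value of 199, 83.3 in replicate 1 and 114 in replicate 2. The sty peak, near the gene for the antagonist Sprouty, had 145, 70.2 and 71.3. It lay outside sty, and its nearest TSS, at 17978 bp, was that of Ids. Both were GACGTG. The others were edl, a regulator of ETS factors (76.1, 44.6 and 33.3), and spi, the ligand Spitz (69.5, 37.6 and 37.4), whose summit 157 bp from a TSS held AACGTG and TACGTG. The spi peak was in neither replicate list. The genes of this list are long as well, with a median of 13265 bp.

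In the Notch list 3 of 14 genes qualified (21.4%) and 10 had a peak without the core (71.4%), beside 6.71% and 26.3% of all protein-coding genes. The genes of this list have a median length of 7577 bp, against 2166 bp over all genes. The 3 were mam, the coactivator Mastermind (94.4 pooled, 48.6 in replicate 1, 45.6 in replicate 2), and the bHLH repressors E(spl)mdelta-HLH (89.0, 43.4 and 48.1) and E(spl)m3-HLH (85.7, 38.4 and 38.2), the last with CACGTG. The summit at E(spl)mdelta-HLH was nearest to a TSS of CG43116, at 166 bp. Axon guidance genes had 2 of 15, unc-5, a repulsive netrin receptor (78.6 pooled, in the ranked list of replicate 2 with 41.0 and without a match in that of replicate 1), and NetB, a netrin of the midline (67.5, 22.5 and 44.0), whose summit inside the gene was nearest to a TSS of CG5321. Of the guidance genes 12 of 15 had a peak without the core, beside 26.3% of all genes, and their median length is 40180 bp. The Hox and segmentation list had 2 of 18, Scr (60.4, 35.1 and 21.3), with Dfd as the nearest TSS, and lab (60.1, 32.8 and 33.7). Neither peak was in a replicate list, and that of Scr was not in the conservative list. A peak without the core was near 38.9% of the genes of this list, and their median length is 7879 bp.

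Lists of markers of other cells of the embryo held 1 to 3 genes with such a peak, or none, beside the 6.71% of all protein-coding genes. Among neuronal genes it was 1 of 12 (8.33%), elav, an RNA-binding protein of neurons, whose peak 249 bp from a TSS had 215 pooled, 85.8 in replicate 1 and 126 in replicate 2, with TACGTG. Glial genes had 3 of 10, moody, a receptor of the blood-brain barrier (223, 88.2 and 127), Gs2, a glutamine synthetase (128, 61.8 and 60.3), and gcm2, a transcription factor of glia (58.9, 22.9 and 45.2). The last summit lay outside gcm2, in a 5′ UTR and 30 bp from a TSS of Trx2, which was the nearest. That peak was in the replicate 2 list only and not in the conservative list. A peak without the core was near 6 of the 10 glial genes (60.0%), beside 26.3% of all protein-coding genes, and their median length is 6597 bp. The elav and moody peaks were as strong as the intronic peak of sim. Their summits lay outside elav and moody, in introns of other genes, although the nearest TSS was that of elav or moody. Hemocyte and fat body genes had 1 of 11 (9.09%), ush, a cofactor of GATA factors (49.8, 17.2 and 28.0), and germline genes 1 of 7 (14.3%), piwi (90.6, 34.9 and 56.0). The piwi summit was 153 bp from a TSS of CG12253, and the ush summit, inside that gene, was nearest to a TSS of cbt. The ush peak was in neither replicate list and not in the conservative list. The gut list had 1 of 6, which was lab again. A peak without the core was near 41.7% of neuronal, 36.4% of hemocyte and fat body, 71.4% of germline and 66.7% of gut genes. Median gene lengths in these lists are 23982, 13948, 3270 and 11217 bp in the same order, against 2166 bp over all genes.

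Genes expressed in all cells were among the members as well. In the ribosomal protein list 4 of 14 genes (28.6%) had a core-holding peak and 9 had a peak without the core, although their median length is 1458 bp. The summits were 18 bp from the TSS for RpL13 (113 pooled, 58.1 in replicate 1, 58.3 in replicate 2) and 1 bp for RpL11 (72.1, 35.3 and 33.8). Both were thus at the promoter itself. This prompted a count over all 92 ribosomal protein genes by their symbols, chosen after the values were seen. A core-holding summit lay within 5 kb of 23 of the 92 and a summit without the core near 48 of them (52.2%), against 6.71% and 26.3% of all protein-coding genes. Among core-holding summits 19 of 398 (4.77%) were within 500 bp of the TSS of such a gene, at a median of 20 bp, and of the summits without the core 29 of 2284 (1.27%). Their signal values ran from 45.1 to 160, with RpL7 highest (84.7 in replicate 1 and 83.5 in replicate 2), and 11 of the 19 were in both replicate lists. The core was present within 100 bp of a TSS in 46 of the 92 genes, against 22.7% of all protein-coding genes (3171 of 13945), without regard to peaks. Without the summits at ribosomal protein genes the share near a TSS was 44.9% with the core and 38.2% without it (difference 6.63 points, Fisher's exact p = 0.0168). Among heat shock genes 3 of 9 qualified, Hsp22, Hsp23 and Hsp26, and 3 of 9 (33.3%) had a peak without the core. The strongest core-holding peak of Hsp22, Hsp23 and Hsp26 is the same (77.8, 23.6 and 60.4), so they are not 3 separate cases. A weaker core-holding peak lay in a 5′ UTR, 431 bp from a TSS of Hsp22 (63.5, 36.4 and 31.0). These lists are described by their counts only and no test was made of them.

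At the edge of the rule, the 102 peaks whose nearest core lay 76 to 100 bp from the summit had a median signal value of 82.6, and 40.2% were within 500 bp of a TSS. The 115 peaks with a core at 101 to 125 bp, just outside, had 75.6 and 43.5%. In both replicate lists were 37.3% and 32.2% of them. The values just inside and just outside the limit are given as a description, without a test.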

How the data were processed

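The authors deposited 8 peak lists in dm6. The 4 lists used for results are thresholded by the irreproducible discovery rate (optimal, conservative and 1 per replicate). The ranked lists of the replicates gave each peak's per-replicate value. It is the highest signal value among the ranked peaks that overlap it by at least 1 bp. Overlapping or adjacent peaks of the pooled list can therefore share a value. Signal values are the strength the authors deposited for each peak. The sources used here do not name the aligner or the caller.

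The optimal list was scanned in windows of 201 bp, with CACGTG counted as 1 site. Overlap meant at least 1 bp, and a TSS that of a protein-coding transcript of Ensembl release 115 (BDGP6, same arm lengths). Peaks with and without the core were compared by two-sided Fisher's exact tests with Newcombe intervals of the difference and Benjamini-Hochberg adjustment over features or patterns. Each summit had 1 feature, in the order coding sequence, 5′ UTR, 3′ UTR, other exon, intron, intergenic. Peaks are not independent replicates, and the tests measure the spread over peaks. The scan and the tests were tested on simulated data. Python 3.11.15, numpy 2.4.6, scipy 1.17.1, statsmodels 0.14.6 and matplotlib 3.10.9 were used.

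Members, gene lists and tests were chosen with earlier results of these data known. Named genes were those nearest to the 15 strongest core-holding peaks, all midline, bHLH-PAS, hypoxia and circadian genes with such a peak, up to 3 per other list, and those at peaks with 3 cores. The genes sm, edl, spi, RpL7, RpS3A and ci were chosen after their values were seen. Alternatives changed the list, the distances, the GC class, overlapping peaks and the palindrome. A named gene of the ribosomal protein list is not reported here.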

Additional observations from a re-analysis of the deposited data

How the results depend on the processing

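The higher share of core-holding summits near a TSS kept its direction in 14 of 14 alternatives and passed the test in 12. It missed it in the lowest and middle class of GC content, at 5.32 and 5.64 points. The number of genomic features that passed was 2, and it was 1 with the core within 50 bp of the summit, 0 in each class of GC content, and between 0 and 2 with the list of a single replicate. The cause was not tested. Differences that did not pass a test changed sign in places. The share in both replicate lists was -3.39 points with the core within 50 bp and -0.605 over 500 bp from a TSS. The share above the median signal value was 2.83 and 3.36 points in the lowest and middle class of GC content and between -2.58 and 3.96 with the list of a single replicate. The share in the conservative list was 2.39 points in the middle class. The share preceded by T was -0.0361 points with overlapping peaks merged. The share in the palindrome was -1.38 points within 50 bp, -0.631 in the conservative list, -3.10 in the stronger peaks of the list, and between -3.13 and -0.539 with a single replicate. Coding sequence was 0.635 points in the conservative list, intergenic -0.483 within 50 bp, and other exons -0.0996 within 50 bp, between -0.878 and 1.74 with a single replicate, -0.109 merged, -1.79 in the highest GC class and -0.00951 without peaks whose only core is the palindrome. Leaving out a replicate means its absence from the calls, so the list of the other replicate was used, and sequencing depth, which is unknown, may set the length of both. No paired analysis was possible because the study has 1 group.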

Other observations

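Genes for non-coding RNAs also lay near core-holding summits. A snoRNA gene, which guides modification of ribosomal RNA, was within 500 bp of 4 of 398 core-holding summits (1.01%) and of 5 of 2284 others (0.219%), and this difference was not tested. For tRNA genes the counts were 2 (0.503%) and 10 (0.438%), and for other non-coding RNA genes 46 (11.6%) and 230 (10.1%).

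Among the peaks with 2 cores were those nearest to Mad, the Smad of Dpp signalling (signal value 220, cores 13 bp apart), RpL7 (160, 71 bp), kirre, an adhesion protein of muscle founder cells (112, 39 bp), ems, a head gap gene (72.6, 31 bp), and comm2 (59.5, 128 bp), and the first 3 were in both replicate lists. These genes were chosen after their values were seen. The 41 peaks with 2 or more cores had a mean GC content of 43.1% (SD 8.59), against 39.7% (SD 8.36) in the 357 with 1. The bases of the cores are counted in these means as well.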
